A study of Mus musculus with 48 samples.

Results

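Rps15 P131S and Rps15 H137Y are point mutations of the same ribosomal protein, and the 12 libraries that carry them were set against each other here, out of 48 libraries in the whole series. They were chosen by their labels: 3 clones of each mutant, clones 24, 63 and 20 for P131S and clones 16, 6 and 2 for H137Y, each with 1 RNA-seq and 1 ribosome footprint library. All were derived by CRISPR-Cas9 editing from Ba/F3, pro-B cells of the mouse that need interleukin 3 to live, and were grown in RPMI with 10% serum and 1 ng/ml interleukin 3. The genotype label of every clone gives the mutation on both alleles, although the titles of the P131S RNA libraries write it once. Cells received 0.1 mg/ml cycloheximide for 1 min, and 1 lysate per clone was divided between poly(A) RNA-seq and RNase I footprints of 28 to 30 nt. Clones 3, 2 and 1 labelled wild type (WT), grown and treated the same way, serve as a reference level and entered no test. The replicates are separate clones of 1 line, so spread between them includes whatever each clone gained during selection.

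Rps15, also called uS19, lies in the head of the small ribosomal subunit, and its flexible C-terminal tail reaches towards the decoding site where transfer RNAs read the message. Both residues lie in that tail, which is where the mutations of this gene in chronic lymphocytic leukaemia cluster. Sequencing of footprints, the stretches of messenger RNA shielded by ribosomes, reports how much of each RNA is being translated. The ratio of footprints to RNA is called translational efficiency.

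RNA totals were 26532879 to 32750439 in P131S and 26200445 to 34760822 in H137Y. Footprint totals were 47265211 to 55389029 in P131S and 26663087 to 61149784 in H137Y, the lowest being clone 6. Levels are given as CPM, counts relative to the total of the library, scaled by trimmed means, and values of single clones follow the clone order above. Log2 differences are P131S minus H137Y with their standard error (SE), so that negative values are higher in H137Y. A gene was called at an adjusted p under 0.05 in edgeR's quasi-likelihood test with Benjamini-Hochberg adjustment.

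Rps15 itself was measured first. Its RNA was at 907, 1830 and 1940 CPM in P131S clones 24, 63 and 20 and at 1830, 817 and 875 CPM in H137Y clones 16, 6 and 2, beside 1450, 1430 and 1450 CPM in WT. The mutants thus overlapped entirely, with low and high clones in each (log2 difference 0.40, SE 0.42, adjusted p 0.647). Footprints on Rps15 overlapped as well, at 243, 425 and 693 CPM in P131S and 459, 262 and 258 CPM in H137Y (log2 difference 0.46, SE 0.40, adjusted p 0.679). The footprint-to-RNA ratio was 0.233 to 0.358 in P131S and 0.251 to 0.320 in H137Y. The counts hold no allele information, so the mutations themselves were not read from these data.

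The lineage label was compared with marker RNAs. Of 10 B-lineage markers, 2 reached a mean of 1 CPM in either mutant, Ptprc (CD45) and Cd79b, while Rag1, Igll1 and Il7r were at 0 in all 9 libraries and Ebf1 and Pax5 were at 0.119 CPM or less. The summed level of the 10 was 186 to 292 CPM in P131S and 186 to 201 CPM in H137Y. Most of that sum was Ptprc, at 182 to 286 CPM in P131S and 179 to 192 CPM in H137Y. Cd79b was at 3.34 to 4.87 CPM and 6.67 to 8.31 CPM. The 10 neutrophil markers summed to 596 to 3610 CPM in P131S and 653 to 4220 CPM in H137Y, beside 45.0 to 199 CPM in WT. P131S clone 63 and H137Y clone 6 were the highest in their genotypes, and the part of this spread in the results was not tested. None of the 19 neutrophil granule genes tested was called in edgeR, DESeq2 or limma voom, and 0 had an unadjusted p under 0.05. In bulk RNA, fewer cells of a kind and less RNA per cell cannot be told apart.

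The comparison of RNA asked in which genes the mutants differ before translation. Of 12069 genes tested, 378 were called, which is 3.13%. P131S was higher in 126 (1.04% of genes) and H137Y in 252 (2.09%). Differences of at least 2-fold were found for 136 of the calls, 24 higher in P131S and 112 higher in H137Y. The count leaned on single clones. It was 8 without H137Y clone 16, 46 without P131S clone 63, 132 without P131S clone 20 or H137Y clone 2, 158 without P131S clone 24 and 708 without H137Y clone 6. The sign was kept in all 6 of these fits for 376 of the 378 genes. The 8 genes called in every one were Ifitm1, Spc24, Itga2b, Itga6, Serpina3g, C1s1, Nlrp6 and Shank3.

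Several genes of red cells and platelets were higher in H137Y. Their promoters are shown before their values because several of these genes are textbook targets of the GATA factors. The windows are the 150 bases before the start site in RefSeq, build GRCm38.p6, written 5′ to 3′ on the strand of the gene. Capitals mark the GATA motif, searched as AGATAA or as AGATAG, and with a first T as TGATAA or as TGATAG, on both strands. The letters TTATCA thus stand for TGATAA read on the other strand.
Klf1 (chr8:84901832-84901981, plus strand): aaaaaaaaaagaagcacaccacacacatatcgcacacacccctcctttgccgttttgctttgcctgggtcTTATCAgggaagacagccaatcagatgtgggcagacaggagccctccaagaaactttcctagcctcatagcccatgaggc
Rhag (chr17:40810999-40811148, plus strand): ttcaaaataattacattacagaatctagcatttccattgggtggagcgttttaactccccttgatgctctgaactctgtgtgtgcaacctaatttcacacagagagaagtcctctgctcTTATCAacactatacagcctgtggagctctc
Kel (chr6:41704326-41704475, minus strand): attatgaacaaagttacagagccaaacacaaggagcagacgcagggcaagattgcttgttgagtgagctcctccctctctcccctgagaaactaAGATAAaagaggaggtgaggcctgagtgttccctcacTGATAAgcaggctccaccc
Hemgn (chr4:46404184-46404333, minus strand): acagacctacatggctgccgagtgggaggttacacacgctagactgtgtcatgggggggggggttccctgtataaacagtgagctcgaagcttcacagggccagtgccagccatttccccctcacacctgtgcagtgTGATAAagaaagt
Kel held 2 matches, starting 56 and 19 bases before the start site, and the others shown held 1 each. Gfi1b also held 1, while Itga2b, Tal1, Gata1 and Hbb-y held 0 in this window. Among all 32851 promoters of that length 16.0% held a match. By gene, the share was 10.9% of 9002 genes tested in RNA, 17.3% of 191 called higher in H137Y and 9.18% of 98 called higher in P131S. A match describes letters, and binding was not measured.

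Klf1, a transcription factor of red cells, was at 14.8, 11.9 and 9.63 CPM in P131S and 31.1, 31.6 and 29.3 CPM in H137Y, with WT at 17.3, 18.1 and 23.7 CPM. The mutants did not overlap, and WT lay between their means (log2 difference -1.35, SE 0.16, adjusted p 0.011). Itga2b, the platelet integrin CD41, was at 124, 105 and 104 CPM in P131S and 351, 272 and 256 CPM in H137Y (log2 difference -1.41, SE 0.14, adjusted p 0.00867). Every H137Y clone was again above every P131S clone, with WT at 212, 181 and 214 CPM. Rhag, a partner of the Rh antigens of the red cell membrane, was at 1.56, 0.158 and 0.636 CPM in P131S and at 76.6, 41.3 and 55.4 CPM in H137Y (log2 difference -6.21, SE 0.61, adjusted p 0.013). WT stood near the P131S end for this gene, at 3.64 to 4.63 CPM. Kel, which carries the Kell blood group, was at 0.0759, 0 and 0 CPM in P131S and 24.0, 5.61 and 24.9 CPM in H137Y, and its mean in WT was 0.0233 CPM. Outside H137Y its RNA was thus at the level of single reads, and H137Y clone 6 had less than the other clones of its genotype.

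The same direction held for transcription factors that direct this lineage. Tal1 was higher in H137Y by a log2 difference of -0.75 (SE 0.13), Gata1 by -0.58 (SE 0.12), Lmo2 by -1.08 (SE 0.17), Gfi1b by -0.66 (SE 0.14) and Fli1 by -0.45. With Klf1 these are the 6 called of 28 haematopoietic transcription factors tested, and 0 were called higher in P131S. Over all genes 2.09% were called higher in H137Y. Of the 28, 8 (28.6%) had every H137Y clone higher, against 15.3% of all genes. The WT position differed among the 6 called. WT means were 222 CPM for Tal1 and 60.6 CPM for Gata1, beside H137Y (229 and 62.7 CPM). For Gfi1b WT was above both mutants, at 44.2 CPM. For Lmo2 (11.8 CPM) and Fli1 (42.2 CPM) it was beside P131S (9.68 and 42.8 CPM). Zfpm1 (FOG1), the cofactor of Gata1, was at 346 to 386 CPM in P131S and 600 to 740 CPM in H137Y, with WT at 334 to 435 CPM. Hemgn, a nuclear protein of blood progenitors, rose from 4.28 to 7.21 CPM in P131S to 20.7 to 28.1 CPM in H137Y (log2 difference -2.01, SE 0.23). The embryonic globin Hbb-y was called too, at 0.0669 to 0.158 CPM against 0.71 to 8.64 CPM. Adult alpha globin Hba-a1 had the same order but a wide spread, 9.74 to 26.7 CPM against 29.2 to 228 CPM (log2 difference -3.05, SE 0.90, adjusted p 0.134), and shares reads with a near-identical copy.
Of 19 listed erythroid and megakaryocyte genes 11 were tested, 4 were called higher in H137Y (Itga2b, Klf1, Tal1 and Gata1) and 7 had every H137Y clone above every P131S clone. Over all genes 15.3% had such an order. The list's median log2 difference was -1.35, against -0.02 over all genes. Among other markers of these cells, adult beta globin Hbb-bt was at 4.58 to 17.3 CPM in P131S and 16.8 to 53 CPM in H137Y, whereas the platelet chemokine Pf4 was at 0 in all 9 libraries and Alas2, of haem synthesis, at 0.0396 CPM or less.

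Surface and adhesion genes contributed to the largest differences. Itga6, the laminin-binding integrin chain, was at 3.41, 2.06 and 1.37 CPM in P131S and 25.0, 24.5 and 23.6 CPM in H137Y (log2 difference -3.43, SE 0.30, adjusted p 0.00628). WT, at 13.0 to 22.1 CPM, was nearer to H137Y. Itgb3, the platelet partner of Itga2b, was at 15.9 to 34.8 CPM in P131S, 63.4 to 112 CPM in H137Y and 4.90 to 8.34 CPM in WT, so WT lay below both mutants. These 3 integrins were the only calls among 23 adhesion genes tested, and 0 members were called higher in P131S. Of all genes, 2.09% were called higher in H137Y. Every H137Y clone was higher for 10 of the 23 (43.5%), against 15.3% of all genes. Mylk, the myosin light chain kinase, was at 0.119 to 0.970 CPM in P131S and 21.3 to 31.1 CPM in H137Y (log2 difference -5.41, SE 0.49). The inflammasome sensor Nlrp6 was at 0.228 to 0.356 CPM and 5.37 to 11.6 CPM (log2 difference -4.78, SE 0.44). The complement protease C1s1 was at 1.04 to 1.93 CPM and 11.6 to 20.3 CPM (log2 difference -3.57, SE 0.31). Serpina3g, an inhibitor of lysosomal proteases, was at 71.5, 52.9 and 66.5 CPM in P131S and 176, 216 and 170 CPM in H137Y, with WT at 204 to 254 CPM. The adaptor Grap2 was at 0.669 to 3.29 CPM in P131S and 17.5 to 28.5 CPM in H137Y.

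**Figure D1:**
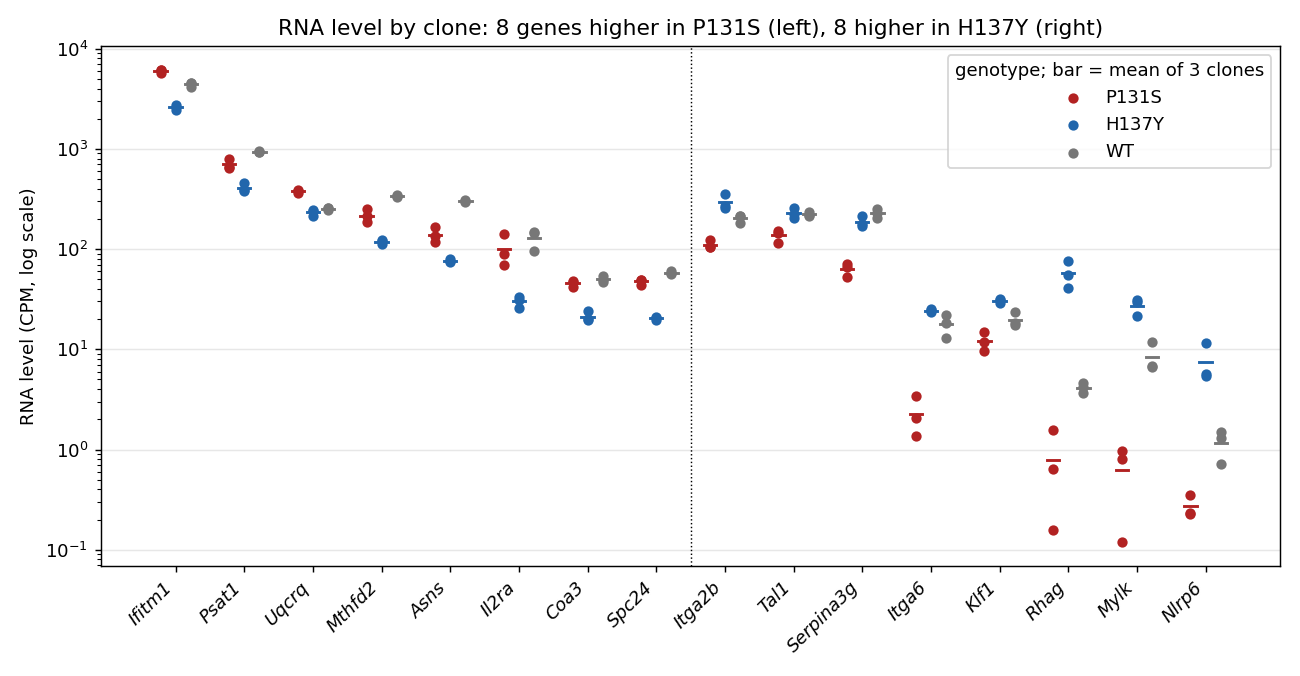
RNA level in CPM on a log axis for 16 genes, with 1 point per clone and a bar at the mean of 3 clones, for P131S (red), H137Y (blue) and WT (grey). Left of the dotted line every P131S clone lies above every H137Y clone, right of it every H137Y clone lies above every P131S clone, and the WT position differs from gene to gene.

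In the other direction, several nuclear genes of the respiratory chain were higher in P131S. Of 79 tested, 7 were called and 0 were called higher in H137Y, while 68 (86.1%) had every P131S clone above every H137Y clone, against 15.3% of all genes. The list's median log2 difference was 0.38 and stayed between 0.31 and 0.45 when any 1 clone was left out. Uqcrq, a subunit of complex III, was at 378, 359 and 392 CPM in P131S and 240, 212 and 244 CPM in H137Y. WT was at 256, 256 and 243 CPM. The difference was 0.69 (SE 0.10, adjusted p 0.0164), with WT beside H137Y. Cyc1, the cytochrome of the same complex, was at 209 to 252 CPM against 142 to 159 CPM, and Sdhb, the iron-sulfur subunit of complex II, at 126 to 150 CPM against 89.6 to 92.1 CPM. The other calls were Ndufa5 (0.72), Ndufc2 (0.59) and Ndufb11 (0.44) of complex I and Atp5g3 (0.55) of ATP synthase, all as log2 differences. Coa3, an assembly factor of cytochrome oxidase, was at 46.7, 42 and 48.4 CPM in P131S and 19.6, 23.9 and 20.1 CPM in H137Y (log2 difference 1.10, SE 0.11, adjusted p 0.00867). Here WT, at 46.8 to 53.8 CPM, was beside P131S.

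Mitochondrial ribosomal protein genes had a similar order with smaller differences. Mrps28 (0.64), Mrps36 (0.55) and Mrpl54 (0.44) were called of 78 tested, 55 (70.5%) had all P131S clones higher and 0 all H137Y clones higher, and the median was 0.28. Proteasome subunits Psma1 (0.49), Psma5 (0.45) and Psmc6 (0.46) were called of 38, with a list median of 0.21. Of 79 genes of the transcription machinery, Med21 (0.76), Polr2e (0.58), Med14 (0.55) and Polr2g (0.43) were called higher in P131S and Med13l (-0.63) in H137Y. Beside these lists, 1.04% of all genes were called higher in P131S and 2.09% in H137Y. By genomic span, the median RNA difference was 0.03 in the shortest 2308 and -0.10 in the longest 2308 of 11537 genes (Spearman's rho -0.14 across genes, which are not independent). The part of span in these lists was not tested.

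Some genes of amino acid metabolism and the ATF4 response were higher in P131S than in H137Y. The calls were 4 of 26 ATF4 targets and 5 of 20 transfer RNA synthetases, against 1.04% of all genes. ATF4 is the transcription factor that raises amino acid synthesis and transport under stress. Its response element is shown because Asns, Nupr1, Pck2, Gars and Tars, all called, hold it in the 150 bases before the start site. Of these 5, 4 are printed. It was searched as TGATGNAAN on both strands, and capitals mark it.
Asns (chr6:7693210-7693359, minus strand): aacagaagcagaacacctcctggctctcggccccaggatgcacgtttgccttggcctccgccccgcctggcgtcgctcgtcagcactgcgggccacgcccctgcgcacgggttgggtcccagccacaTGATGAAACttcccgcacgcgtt
Nupr1 (chr7:126625471-126625620, minus strand): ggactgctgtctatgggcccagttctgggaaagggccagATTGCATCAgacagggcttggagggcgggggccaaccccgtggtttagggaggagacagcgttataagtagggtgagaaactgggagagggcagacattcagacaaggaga
Tars (chr15:11399659-11399808, minus strand): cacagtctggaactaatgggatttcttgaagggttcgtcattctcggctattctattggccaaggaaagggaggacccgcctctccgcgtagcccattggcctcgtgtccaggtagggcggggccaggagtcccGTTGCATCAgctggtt
Gars (chr6:55037851-55038000, plus strand): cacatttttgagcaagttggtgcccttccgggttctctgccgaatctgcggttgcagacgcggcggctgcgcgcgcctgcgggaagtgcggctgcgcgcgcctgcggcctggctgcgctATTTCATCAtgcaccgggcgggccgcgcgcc
This motif was in 2.22% of all promoters and, by gene, in 1.43% of those tested in RNA. It was in 10 of 98 genes called higher in P131S (10.2%) and in 3 of 191 called higher in H137Y (1.57%). The 10 were Asns, Gars, Got1, Jdp2, Nupr1, Pck2, Pi16, Slc9a9, Tars and Tbce. Psat1, Mthfd2 and Yars held 0 matches.

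Asns, asparagine synthetase, was at 134, 119 and 165 CPM in P131S, 73.9, 79.0 and 75.4 CPM in H137Y and 301, 308 and 298 CPM in WT. The 3 genotypes did not overlap (P131S against H137Y 0.87, SE 0.12, adjusted p 0.015). Mthfd2, of mitochondrial folate metabolism, was at 213, 186 and 249 CPM, 122, 112 and 121 CPM, and 332, 338 and 346 CPM in the same order. Psat1, of serine synthesis, was at 644 to 798 CPM in P131S and 382 to 455 CPM in H137Y (0.77, SE 0.11), with WT at 925 to 957 CPM. The stress-induced regulator Nupr1 was at 11.1, 10.6 and 22.7 CPM in P131S, 2.00, 0.852 and 2.16 CPM in H137Y and 37.2 to 58.9 CPM in WT (3.13, SE 0.44, adjusted p 0.0191). Of 26 ATF4 targets tested these 4 were called, 13 (50.0%) had all P131S clones higher and 0 all H137Y clones higher, with a median of 0.31. Pck2, the mitochondrial enzyme that makes phosphoenolpyruvate, was at 75.8 to 93.0 CPM, 47.2 to 50.5 CPM and 217 to 228 CPM (0.77, SE 0.10, adjusted p 0.015). The transfer RNA synthetases Cars (0.62), Nars (0.57), Gars (0.50), Tars (0.48) and Yars (0.47) were called of 20 tested, and 0 were called higher in H137Y. Relative to the mean of the 6 mutant clones, ATF4 targets stood at 0.07 to 0.24 in P131S, -0.23 to -0.16 in H137Y and 0.79 to 0.82 in WT, as median log2 levels.

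**Figure D2:**
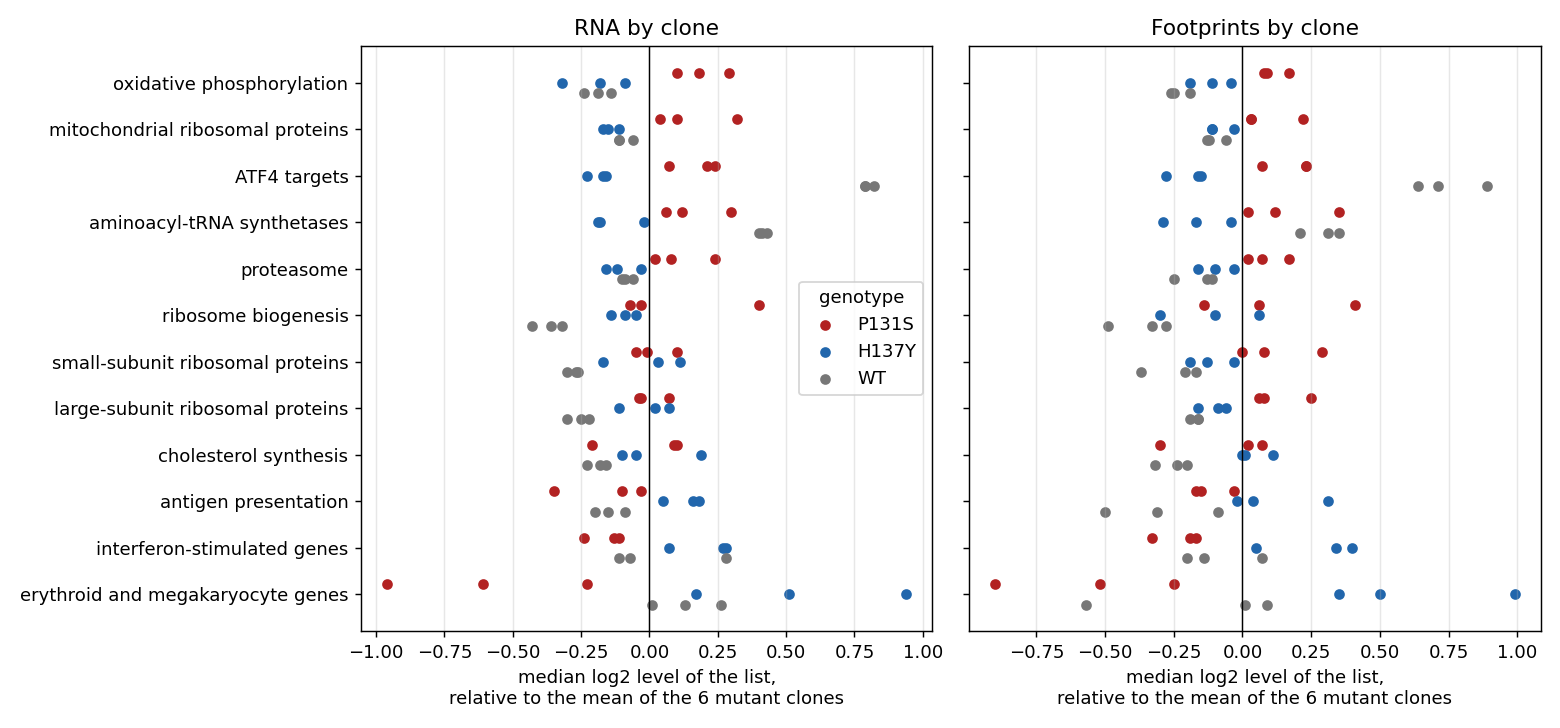
Median log2 level of 12 gene lists in each clone, relative to the mean of the 6 mutant clones, in RNA (left) and footprints (right), with 1 point per clone for P131S (red), H137Y (blue) and WT (grey). Oxidative phosphorylation separates the mutants with WT beside H137Y, ATF4 targets place WT above both, and erythroid genes place H137Y highest at 0.17 to 0.94 in RNA.

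Among interleukin 3 and STAT5 targets, 2 genes were called higher in P131S and 1 in H137Y. Il2ra, a receptor chain induced by STAT5, was at 89.1, 142 and 70.0 CPM in P131S and 30.7, 26.1 and 33.3 CPM in H137Y, with WT at 94.8 to 149 CPM (1.73, SE 0.27, adjusted p 0.0258). Osm, the cytokine oncostatin M, was at 100.0 to 164 CPM in P131S, 48 to 72.9 CPM in H137Y and 43.1 to 49.0 CPM in WT (1.22, SE 0.22). Bcl2l1, which encodes the survival protein Bcl-xL, was higher in H137Y (-0.58). These were the 3 calls among 19 interleukin 3 and STAT5 targets, against 3.13% of all genes. Jund, a subunit of AP-1, was at 386 to 578 CPM against 245 to 273 CPM (0.94, SE 0.15, adjusted p 0.0216). The highest expressed of the called genes named here was Ifitm1, an interferon-inducible membrane protein, at 6180, 6120 and 5710 CPM in P131S, 2420, 2750 and 2640 CPM in H137Y and 4110 to 4540 CPM in WT (1.20, SE 0.09, adjusted p 0.00628). Its direction was opposite to the median of the listed interferon-stimulated genes, -0.49 over 30 tested, a list that leaves out Ifitm1. Of the 30, 11 (36.7%) had all H137Y clones higher and 2 (6.67%) all P131S clones higher, against 15.3% of all genes each way. Ifitm3 was among the latter (0.61, SE 0.16, adjusted p 0.0691). None of these 30 was called in edgeR, against 7 in DESeq2, 1 in limma voom and 12 at an unadjusted p under 0.05. Oas2, which senses double-stranded RNA, was at 0.792 to 1.71 CPM against 3.09 to 11.8 CPM (-2.46, SE 0.52, adjusted p 0.0525). The kinase Eif2ak2 (PKR), also outside the interferon list, was called, at 31.8 to 34.3 CPM against 50.3 to 57.0 CPM (-0.68, SE 0.09, adjusted p 0.015). Its footprints differed less and were not called (-0.39, SE 0.16, adjusted p 0.339). Eif3i, an initiation factor subunit, was higher in P131S (0.55, SE 0.08, adjusted p 0.018).

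Among other called genes, Spc24, of the kinetochore, was at 49.5, 44.3 and 48.9 CPM in P131S and 20.9, 20.6 and 19.5 CPM in H137Y. Sms, which makes spermine, was at 181 to 203 CPM against 102 to 117 CPM. WT was at 56.6 to 60.2 CPM for Spc24 and 192 to 202 CPM for Sms, beside P131S for both. Footprints on Sms overlapped between the mutants, at 78.9 to 104 CPM in P131S and 61.3 to 113 CPM in H137Y (adjusted p 0.806). Scin, a gelsolin relative, was at 346 to 484 CPM in P131S, 74.6 to 178 CPM in H137Y and 161 to 185 CPM in WT (1.64, SE 0.31). The adaptor Clnk was higher in P131S by 1.69 (SE 0.22) and Crybg1 by 2.57 (SE 0.48). Of 10 mast cell and basophil genes tested, Gata1 alone was called, as higher in H137Y. All P131S clones were higher for 3 (30.0%), against 15.3% of all genes. Among these were the receptor Cd200r3, at 14.1 to 54.1 CPM against 0.957 to 2.98 CPM (adjusted p 0.053), and the protease Gzmb, at 894 to 2110 CPM against 165 to 546 CPM (adjusted p 0.109). Other markers of these cells overlapped, as Gata2 at 303 to 367 CPM against 305 to 332 CPM. Mcpt8 did too, at 1.67 to 37.6 CPM against 5.09 to 41.1 CPM. Over all calls, WT lay between the mutant means for 65 of the 126 genes higher in P131S and 160 of the 252 higher in H137Y. It was nearer to P131S for 75 and 133 of them, on a log2 scale with 0.5 CPM added.

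The footprint comparison asked whether the same genes differed in ribosome occupancy. Of 14008 genes tested, 34 were called (0.243%), 13 higher in P131S (0.0928%) and 21 higher in H137Y (0.15%). With libraries scaled by their totals, 9 of 39 calls were higher in P131S, and the median of all genes moved to -0.12. Of 378 RNA calls 358 were tested in footprints, and 341 of them had the same sign there, 237 without overlap between the mutants. In 22 both assays were called. Genes without overlap made up 10.9% of all genes for P131S higher and 10.6% for H137Y higher. RNA genes called higher in P131S had a median of 0.64 in RNA and 0.60 in footprints, and those higher in H137Y -0.87 and -0.75. The footprint count also depended on single clones, at 0 without P131S clone 63 or 20 or H137Y clone 16, 1 without H137Y clone 2, 2 without H137Y clone 6 and 27 without P131S clone 24. At unadjusted p under 0.05 those fits kept 1617, 1648, 1786, 1702, 1774 and 2080 genes, against 1932 with all clones. DESeq2 called 777 genes and limma voom 53 on all clones.

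**Figure D3:**
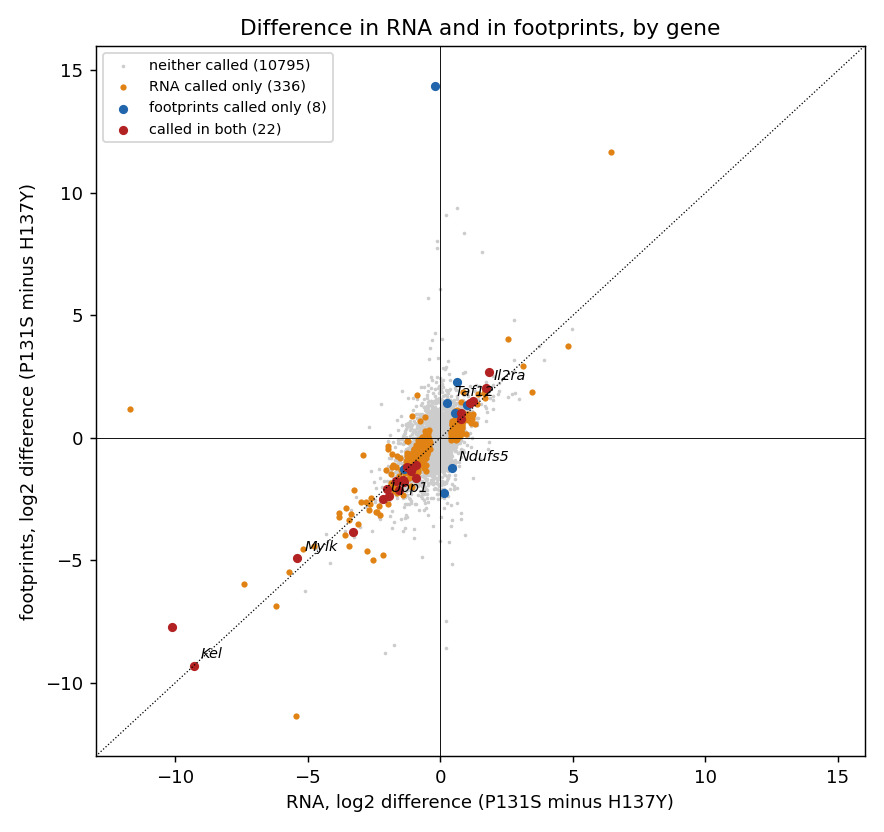
Log2 difference P131S minus H137Y in RNA (horizontal axis) and in footprints (vertical axis) for 11161 genes tested in both, coloured by the calls, with a dotted line where they are equal. Genes called in both assays lie near that line, and Ndufs5 lies below 0 in footprints while it is above 0 in RNA.

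Red cell and platelet genes were again among the calls higher in H137Y. Kel footprints were at 0.0665, 0.0601 and 0 CPM in P131S and 34.4, 7.76 and 41.6 CPM in H137Y (adjusted p 0.0334). Tfr2, the second transferrin receptor, was at 30.2, 31 and 29 CPM in P131S, 58.9, 67.9 and 62.8 CPM in H137Y and 29.5 to 41.9 CPM in WT (-1.09, SE 0.12, adjusted p 0.0334). Hemgn (-2.08), Itga2b (-1.72), Itgb3 (-2.36) and Mylk (-4.91) were called at this level as in RNA. Klf1 (10.3 to 20.4 CPM against 28.9 to 36.0 CPM, -1.14, SE 0.26, adjusted p 0.117) and Rhag (-6.88, SE 1.15, adjusted p 0.0993) were not called. Of 27 haematopoietic transcription factors tested, 0 were called in edgeR, 3 in DESeq2 and 1 in limma voom. All H137Y clones were higher for 5 (18.5%), against 10.6% of all genes. Gata1, Lmo2 and Gfi1b kept their order without overlap, while Tal1 (-0.40, adjusted p 0.364) and Fli1 (-0.25, adjusted p 0.516) overlapped. Of 12 erythroid and megakaryocyte genes tested 9 (75.0%) had all H137Y clones higher and 1 was called, with a median of -1.43.
Upp1, uridine phosphorylase, was at 15.9, 10.3 and 9.21 CPM in P131S and 73.3, 61.2 and 62.7 CPM in H137Y (-2.49, SE 0.23, adjusted p 0.0334). Ube2l6 (-1.35) and Uba7 (-1.27), which attach the ubiquitin-like protein ISG15, and Pml (-1.21), of nuclear bodies, were also higher in H137Y. So was the quinone reductase Nqo1, at 6.14 to 9.22 CPM against 20.3 to 27.6 CPM. The list of interferon-stimulated genes leaves out Ube2l6, Uba7 and Pml. Its footprint median was -0.63 over 31 tested, with 12 (38.7%) higher in all H137Y clones, against 10.6% of all genes. Of these 31, 0 were called in edgeR or limma voom, 7 in DESeq2 and 8 had an unadjusted p under 0.05.
Higher in P131S were Coa3 at 46.8 to 53.6 CPM against 16.9 to 19.7 CPM (1.44, SE 0.14), Spc24 (1.52), Il2ra (2.05), Pck2 (1.02) and Pi16 (2.69). Jun, the AP-1 subunit, was at 111, 95.2 and 85.5 CPM in P131S, 40.7, 36.4 and 36.3 CPM in H137Y and 13.9 to 21.0 CPM in WT (1.35, SE 0.14, adjusted p 0.0334). Rbis, a ribosome biogenesis factor, was at 26.9 to 46.6 CPM against 5.55 to 10.1 CPM (2.26, SE 0.29).
Pseudogenes made up 2210 of the genes tested in footprints, and short footprints shared with a parent gene may be counted there. The pseudogene Gm12918 had 30.4, 57.6 and 88.0 CPM of footprints in P131S and 0 in every H137Y and WT clone, at least 2610-fold higher against a floor of 3 counts over the 3 H137Y libraries. Its RNA was at 8.42 to 11.2 CPM in P131S and 8.52 to 15.3 CPM in H137Y. How such reads were assigned is not given in the sources used here.

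The ratio of footprints to RNA asked whether the mutants differ in translational efficiency. Of 11161 genes tested, 3 were called (0.0269%), and 819 had an unadjusted p under 0.05. With the clone as a block, pairing the 2 libraries of a lysate, 9 were called (0.0806%), among them all 3. DESeq2 called 81 and limma voom 1. Without P131S clone 24 the count was 6, and without H137Y clone 16 it was 7. Genes without overlap between the mutants were 9.69% of all with P131S higher and 8.72% with H137Y higher. Besides Gm12918, Gm14305 was called as higher in P131S, with footprints of 1.36 to 2.24 CPM in P131S and 0 in every H137Y clone, at least 80.7-fold higher by the same floor.

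Ndufs5, a subunit of complex I, was the one call with reads in every library. Its RNA was at 92.3, 84.6 and 93.6 CPM in P131S and 70.9, 58.4 and 70.1 CPM in H137Y. Its footprints had the opposite order without overlap, 118 ± 16.8 CPM in P131S against 278 ± 49.3 CPM in H137Y and 485 ± 124 CPM in WT (mean ± SD, n = 3 clones). The ratio was therefore 1.48, 1.23 and 1.22 in P131S, 3.22, 4.78 and 4.66 in H137Y and 4.23 to 7.33 in WT (log2 difference -1.68, SE 0.21, adjusted p 0.0101). P131S did not overlap H137Y or WT, and the value with the clone as a block was -1.68 (SE 0.18, adjusted p 0.0161). The call was lost without P131S clone 63 (-1.63, adjusted p 0.0726), P131S clone 20 (-1.63, 0.0804), H137Y clone 6 (-1.56, 0.138) or H137Y clone 2 (-1.62, 0.065). It was kept without P131S clone 24 (-1.78, 0.025) or H137Y clone 16 (-1.86, 0.0146). Other respiratory chain genes had the same order of the mutants without a call, as for Ndufb1 (-0.88, SE 0.24) and Ndufb2 (-0.75, SE 0.21). Their WT position differed from that of Ndufs5. The WT ratio was 0.681 to 0.970 for Ndufb1, below both mutants, and 2.58 to 3.35 for Ndufb2, overlapping P131S. Of 78 respiratory chain genes tested, 22 (28.2%) had a lower ratio in every P131S clone and 1 a higher one. Over all genes these shares were 8.72% and 9.69%. The list's medians were 0.38 in RNA, 0.22 in footprints and -0.15 in the ratio. Mitochondrial ribosomal protein genes had 0.28, 0.14 and -0.10. With library totals, which moved all genes to -0.12 in footprints, the footprint medians were 0.12 and 0.04.

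Cytosolic ribosomal protein genes had the opposite arrangement. Their RNA medians were 0.01 over 32 genes of the small subunit and 0.00 over 51 of the large subunit, or -0.03 for both with library totals. In RNA 3 (9.38%) and 10 (19.6%) had every H137Y clone higher, and 0 and 3 (5.88%) every P131S clone. Both orders were at 15.3% over all genes. Footprint medians were 0.26 and 0.22, and those of the ratio 0.25 and 0.23. With library totals the footprint medians were 0.16 and 0.12, against -0.12 over all genes, and those of the ratio 0.19 and 0.17, against -0.06. In the ratio 14 of 32 (43.8%) and 18 of 51 (35.3%) had every P131S clone above every H137Y clone, against 9.69% of all genes. None was called in edgeR or limma voom, 2 and 3 were called in DESeq2, and 8 and 15 had an unadjusted p under 0.05. Rps19, a small-subunit protein, had ratios of 0.171, 0.140 and 0.161 in P131S, 0.0977, 0.0997 and 0.0703 in H137Y and 0.116 to 0.123 in WT (0.83, SE 0.20, adjusted p 0.29). Rps3, at the messenger RNA entry, had 0.345 to 0.415 against 0.220 to 0.259, and Rpl3, near the peptidyl transferase centre, 0.775 to 0.966 against 0.550 to 0.611. For these 3 genes the ratios of the mutants did not overlap. The RNA of Rps19 and Rpl3 overlapped, while that of Rps3 was higher in every H137Y clone (-0.23, SE 0.08, adjusted p 0.149). Eef1g, of the elongation factor complex, was at 0.295 to 0.498 against 0.158 to 0.242 (0.95, SE 0.25, adjusted p 0.324). Its RNA was higher in every H137Y clone, at 2130 to 2280 CPM against 2630 to 2740 CPM, and its footprints overlapped. Rpl29 went the other way in footprints, at 79.9 to 97.3 CPM in P131S and 132 to 165 CPM in H137Y (-0.80, SE 0.14, adjusted p 0.0682).

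**Figure D4:**
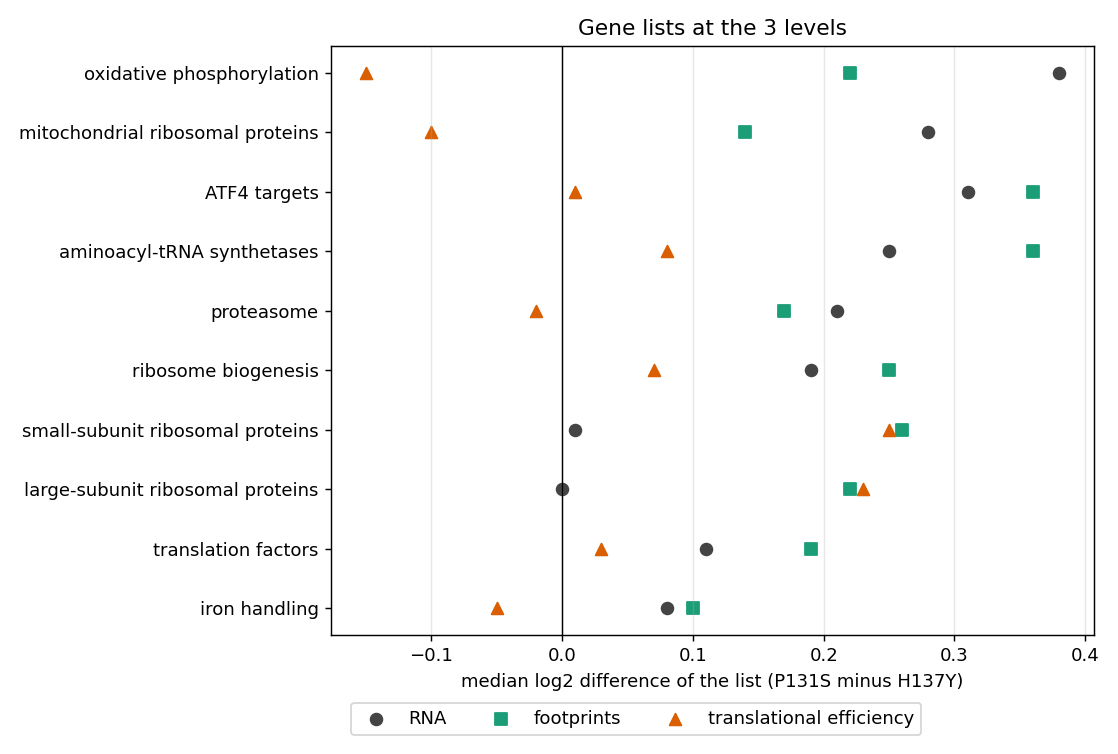
Median log2 difference P131S minus H137Y of 10 gene lists in RNA (circles), footprints (squares) and translational efficiency (triangles). Oxidative phosphorylation runs from 0.38 in RNA to -0.15 in the ratio, while small-subunit ribosomal proteins are at 0.25 in the ratio and near 0 in RNA.

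The ferritins, whose translation is held back by iron regulatory proteins when iron is scarce, had lower ratios in P131S. Fth1, the heavy chain, was at 0.210, 0.259 and 0.151 in P131S, 0.528, 0.410 and 0.427 in H137Y and 0.266 to 0.344 in WT (-1.18, SE 0.19, adjusted p 0.0631). Ftl1, the light chain, was at 0.0389, 0.0404 and 0.0386 in P131S, 0.105, 0.119 and 0.0750 in H137Y and 0.0343 to 0.0555 in WT (-1.37, SE 0.23, adjusted p 0.0703). Neither passed the threshold, although the mutants did not overlap for either gene. Ferritin RNA was at 1850 to 2430 CPM against 1620 to 1800 CPM for Fth1 and 2640 to 3010 CPM against 2670 to 2940 CPM for Ftl1. The processed copy Ftl1-ps2 had 20.5 to 30.3 CPM of footprints in P131S and 97.8 to 149 CPM in H137Y, and reads could be shared between it and Ftl1. Of 16 iron handling genes tested, 4 (25.0%) had a lower ratio in every P131S clone, against 8.72% of all genes. Another 2 (12.5%) had a higher one, against 9.69%. The median difference was -0.05, with 0 called in edgeR or limma voom, 2 in DESeq2 and 2 at an unadjusted p under 0.05. Besides the ferritins, Ncoa4, which delivers ferritin for breakdown, was lower in every P131S clone, at 0.545 to 0.673 against 0.796 to 0.994. So was Fbxl5, which controls iron regulatory protein, at 0.340 to 0.354 against 0.399 to 0.543.

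Higher ratios in P131S were found for Taf12, a subunit of the transcription factor TFIID, at 2.65, 3.39 and 3.54 in P131S, 1.61, 1.25 and 1.44 in H137Y and 1.38 to 1.82 in WT. The difference was 1.16 (SE 0.19, adjusted p 0.0703), and with the clone as a block it was called at 1.14 (SE 0.14, adjusted p 0.0357). The cytoskeletal linker Plec was at 3.45, 4.10 and 3.98 against 1.19, 1.58 and 1.46 (1.43, SE 0.23, adjusted p 0.0592), and was called with the block at an adjusted p of 0.0161. Its RNA had the opposite order, 43.7 to 57.4 CPM in P131S and 71.9 to 76.2 CPM in H137Y.

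**Figure D5:**
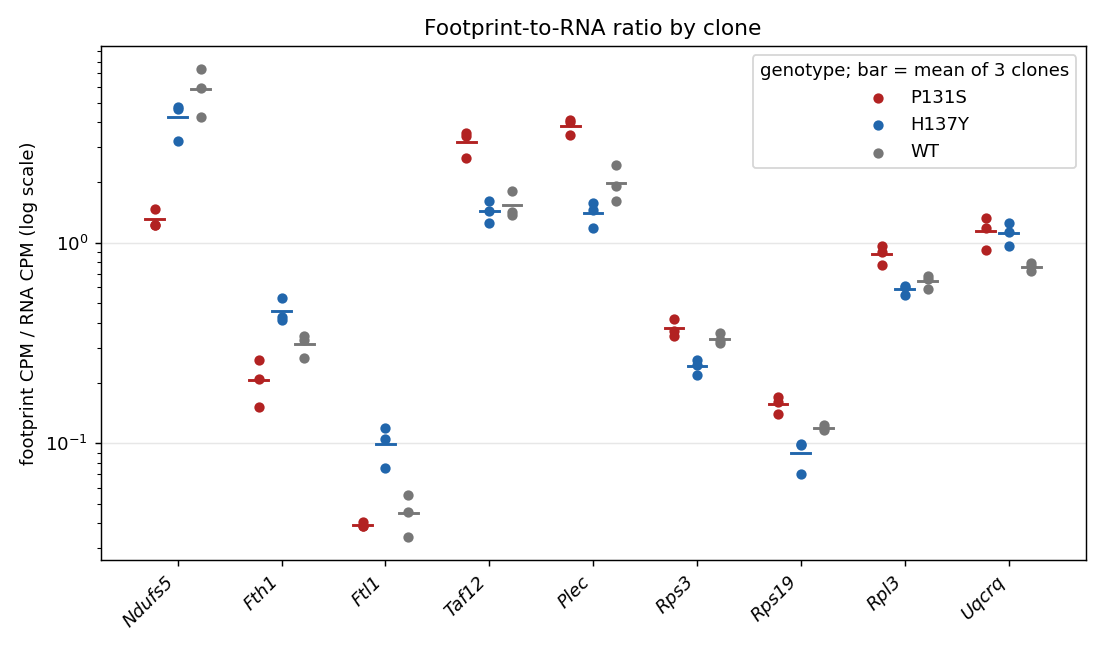
Footprint CPM divided by RNA CPM on a log axis for 9 genes, with 1 point per clone and a bar at the mean of 3 clones, for P131S (red), H137Y (blue) and WT (grey). Ndufs5, Fth1 and Ftl1 are lower in all P131S clones than in all H137Y clones, Taf12, Plec, Rps3, Rps19 and Rpl3 are higher, and Uqcrq overlaps.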

How the data were processed

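The authors deposited 1 table of estimated counts per Ensembl gene for all 48 libraries, with decimal fractions and not normalized, as the values show. STAR 2.6.1d, Salmon 1.4.0, DESeq2 1.30 and build GRCm38 are named in the submitters' processing notes without a role, and the annotation and the treatment of reads shared between genes are not given in the sources used here. The expected counts were rounded to whole numbers. Symbols came from the table for 32115 of 55487 genes and from a table of gene names for 23112. Biotype, genomic span and promoter sequence came from RefSeq, assembly GRCm38.p6.

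Genes with the equivalent of 10 counts in 3 libraries and 15 in total were tested with edgeR 4.0.16 (R 4.3.3), quasi-likelihood and two-sided, on the 6 libraries of an assay with trimmed-mean scaling and Benjamini-Hochberg adjustment. The footprint-to-RNA ratio was tested as an assay by genotype term over 12 libraries, for genes passing in both assays. The smallest p of an exact permutation of 3 clones against 3 is 0.1, and p-values measure the spread between clones. Printed CPM used scaling over all 24 libraries of an assay. The procedure was tested on simulated data with known differences. These were drawn with a fixed spread per assay and no tie between the libraries of a clone, unlike the real data.

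Both libraries of a clone came from 1 lysate per the labels. Their deviations from the genotype mean correlated at 0.265 to 0.573 for the same clone and -0.388 to -0.004 for different clones over 11161 genes, and a block term for the clone was tried as an alternative. Other alternatives were median-ratio scaling, library totals, no filter, a filter in either assay, DESeq2 1.42.0, limma voom (limma 3.58.1), all genotypes in 1 fit and leaving out each clone. A comparison with protein features was not run.

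The comparison, lists and rules were chosen with earlier results of these data known. Genes were named among those called, with a unique symbol, no pseudogene and no overlap between mutants, at a mean of at least 5 CPM: up to 12 with the largest difference per direction in RNA and 8 at the other levels, the 4 smallest p-values, and up to 4 members of each of the 35 lists. Others were named after their values were seen. A few genes that entered the tests and counts are not reported here.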

Additional observations from a re-analysis of the deposited data

How the results depend on the processing

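The number of genes called depended on the processing at every level. In RNA, 378 became 762 without a filter on low counts, 1322 with DESeq2 and 3234 with all genotypes in 1 fit, and 8 to 708 when 1 clone was left out. In footprints, 34 became 200 without a filter, 777 with DESeq2, 53 with limma voom and 677 with all genotypes, and 0 to 27 when 1 clone was left out. In translational efficiency, 3 became 5 with median-ratio scaling, 15 without a filter, 81 with DESeq2, 1 with limma voom, 143 with all genotypes and 9 with the replicate block, and 3 to 7 when 1 clone was left out. The share of calls higher in P131S was 33.3% in RNA and 38.2% in footprints. With library totals it was 28.1% and 23.1%. Of 1578 checks of named genes under an alternative, 5 changed sign, all for the translational efficiency of Rps15: -0.01 with library totals, -0.04 with limma voom, -0.04 with the replicate block, -0.21 without P131S clone 20 and -0.10 without H137Y clone 16, in a range of -0.21 to 0.24 when 1 clone was left out. Of 392 checks of list medians, 9 changed sign: small-subunit ribosomal proteins in RNA (-0.03 with library totals and without P131S clone 20, -0.04 without H137Y clone 6, range -0.04 to 0.07), neutrophil granule genes without H137Y clone 6 (0.47 in RNA, range -1.29 to 0.47; 0.41 in footprints, range -1.41 to 0.41), cholesterol synthesis in footprints without P131S clone 20 (0.01, range -0.17 to 0.01), and iron handling in footprints (-0.01 without P131S clone 20, -0.10 without H137Y clone 6, -0.03 without H137Y clone 2, range -0.10 to 0.12). The causes were not tested. Besides the calls named with the translational efficiency results, the replicate block changed no other call among the genes named in the text.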

Other observations

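Antigen presentation genes had a median log2 difference of -0.36 in RNA over 18 genes and -0.2 in footprints over 19. In RNA 6 of them (33.3%) were higher in every H137Y clone, against 15.3% of all genes. There 0 were called in edgeR or limma voom, 5 in DESeq2 and 8 had an unadjusted p under 0.05. H2-K1, a class I heavy chain, was higher in H137Y in RNA without passing the threshold (-0.52, SE 0.12, adjusted p 0.0603). Its footprints overlapped between the mutants (-0.13, SE 0.18, adjusted p 0.816). Ribosome biogenesis genes had medians of 0.19 in RNA and 0.25 in footprints over 59 genes, and relative to the mean of the 6 mutant clones P131S clone 20 stood at 0.40 in RNA, above the other 5 clones. Cholesterol synthesis genes had a median of 0.00 in RNA over 24 genes. Chromosome medians in RNA ran from -0.029 to 0.030 over 20 chromosomes with at least 100 genes tested.

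The spread between clones was larger in the mutants than in WT. The median SD of a gene's log2 level over 3 clones was 0.156 in P131S and 0.160 in H137Y in RNA, against 0.076 in WT, and 0.243, 0.260 and 0.185 in footprints.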
